A study of Mus musculus with 12 samples.

Results

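The T cell receptor variable segments were the genes whose symbol begins with Trav, Trbv, Trdv or Trgv followed by a number, that is, the variable segments of the alpha, beta, delta and gamma chains. A segment was kept when the platform's annotation gave its probe set exactly 1 gene symbol, and the probe set of highest mean stood for a symbol. This left 111 of the 30142 genes measured with 1 symbol, of which 85 were alpha, 21 beta and 5 delta segments. No gamma segment was among them, because the platform's annotation names most of these Tcrg-V, and the probe set that names Trgv2 has several symbols. All 111 symbols are also in RefSeq's gene table for GRCm38.p6, which lists 105 as variable segments and 6 as pseudogenes of variable segments. The choice used symbols alone and no measured difference.

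Expression was measured in 12 mouse pancreas tumours, 1 array each, in 4 groups of 3 mice. All mice carried the genotype PKT, which the labels do not spell out. The groups were PKT with FAP-TK as a control without depletion, PKT with FAP depleted, PKT with aSMA-TK as a control without depletion, and PKT with aSMA depleted. Fibroblast activation protein (FAP) and alpha smooth muscle actin (aSMA) are both used as markers of fibroblasts, and TK is thymidine kinase, which sensitizes the cells that carry it to ganciclovir. The labels give ganciclovir at 50 ug/kg for all 12 tumours, so whether the controls received it is not clear, and they state neither age, strain nor the promoters of the transgenes. The aSMA group is called by its label here, and the loss of aSMA-positive cells was not taken as given. RNA came from whole tumour, so fewer T cells and less receptor RNA per T cell cannot be told apart.

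A T cell receptor is a pair of chains, alpha with beta or gamma with delta. In the thymus each T cell joins 1 variable segment to a joining segment, in beta and delta with a diversity segment between them, and the joined exon is spliced to a constant region. The variable segment supplies most of the part that touches antigen, and each T cell clone transcribes few of the many segments available. Bulk tissue with many clones therefore spreads its receptor RNA over many variable segments, while the constant regions are shared by all cells of a class. The alpha locus of the mouse holds duplicated blocks of variable segments, and the letters d and n in symbols such as Trav11d and Trav11n mark such copies, which are close in sequence. The delta segments lie in or beside the alpha locus, and symbols such as Trav16d-dv11 mark segments that serve both chains.

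Nearly all of the variable segments were below the background level set by the negative controls of the arrays. A value was called above background when the authors' deposited log2 value exceeded the 95th percentile of the 5222 negative-control probe sets of the same array. Of the 111 members, 109 were below this level on all 12 arrays, and the 2 others were Trav13n-4, above it on 11 arrays, and Trav11n, above it on 9. By comparison 18.4% of all genes were above it on at least 1 array, and 13% on at least 6 of 12. Counted by group, 1 member passed on at least 2 of 3 arrays in the FAP-TK controls, where 7.59% of all genes did so. The same count was 2 members in FAP depleted (12.6% of all genes), 2 in the aSMA-TK controls (13.6%) and 2 in aSMA depleted (14.4%).

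The position of the members relative to background depended on which control probes set it. At the 99th percentile of the negative controls no member passed in any group. Against the 23 probe sets that hold GC-matched background probes, whose 95th percentile lay lower, 11 to 28 members passed per array (9.91 to 25.2% of the members, beside 41.5 to 51.8% of all genes). Against the GC background and at the 95th percentile of the negative controls the share of members above background was below that of all genes. The 30 other probe sets that name a variable segment, 25 with several symbols and 5 named Tcrg-V alone, were below the 95th percentile of the negative controls on every array.

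**Figure D1:**
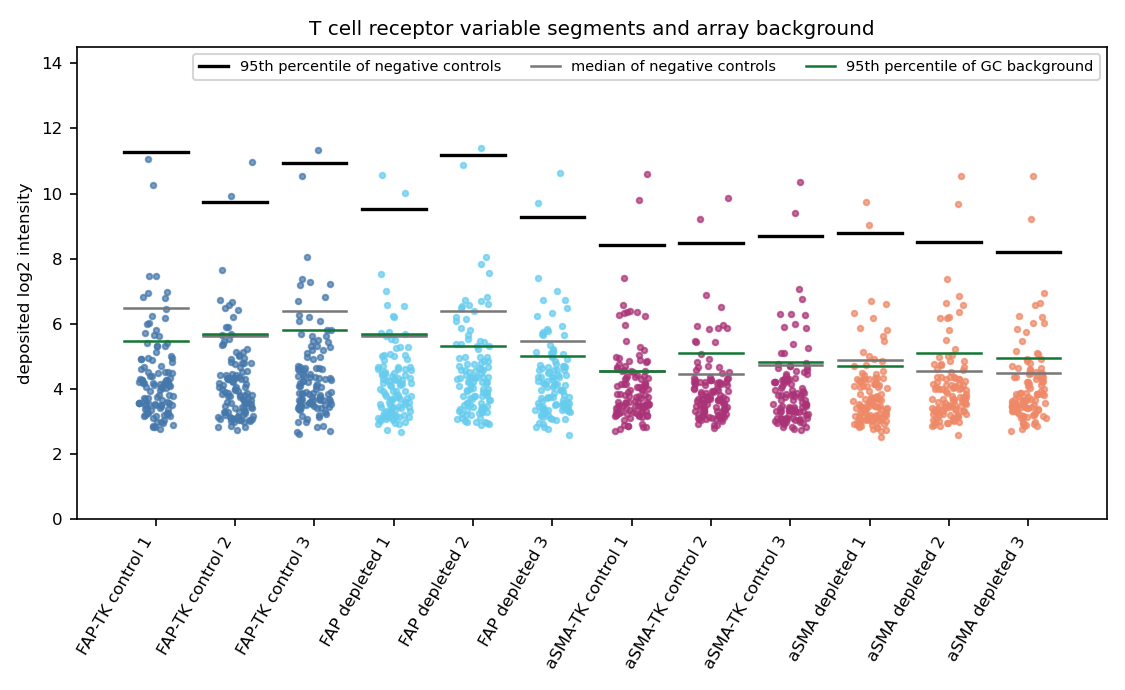
Deposited log2 intensity of the 111 variable segments (points) on each of the 12 arrays, with horizontal lines for the 95th percentile and median of the negative controls and the 95th percentile of the GC background probe sets. Only Trav13n-4 and Trav11n reach the black line, and the lines of the negative controls lie higher on the FAP arrays than on the aSMA arrays.

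The background itself was not alike in the 2 lines. The median of the negative controls was 5.46 to 6.49 on the 6 arrays of the FAP line and 4.46 to 4.88 on the 6 of the aSMA line. On each FAP array this median lay above that of all genes, which was 4.95 to 5.11 on the deposited values. On FAP-TK control replicates 1 and 3 and FAP depleted replicate 2 the positive and negative controls were separated by only 2.69 to 2.99 log2 units, against 4.32 to 4.89 on the other 9 arrays. These 3 arrays are also the ones where Trav11n was not above background. For the comparisons below, all probe sets other than controls were quantile normalized between arrays.

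On the normalized log2 scale the means of the members over 12 arrays ran from 2.84 to 10.62, with a median of 3.86 against 4.82 for all genes. A mean of at most 6 was found for 101 of the 111. The median segment stood between the 27.9th and the 33.8th percentile of all genes on the 12 arrays. The median SD over the arrays was 0.24 for the members, 0.29 for all genes and 0.22 for the genes with a mean of at most 6, so the spread of the segments was close to that of other dim genes. Values of different probe sets also depend on how well their probes bind, so they give no order of transcript amounts between segments.

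The brightest member was Trav13n-4, an alpha segment of the Trav13 family. Its deposited values were 11.06, 10.97 and 11.35 in the FAP-TK controls, 10.56, 11.41 and 10.62 in FAP depleted, 10.61, 9.85 and 10.36 in the aSMA-TK controls, and 9.74, 10.53 and 10.54 in aSMA depleted. FAP-TK control replicate 1, whose background level was 11.29, was the 1 array where it did not pass. After normalization its group means were 10.81 ± 0.19, 10.58 ± 0.45, 10.60 ± 0.22 and 10.50 ± 0.49 in the same order (SD, n = 3). The 4 groups overlapped, and they did not differ beyond the spread between mice (limma F-test, adjusted p = 0.823).

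Trav11n, a copy of the segment that the invariant natural killer T cell receptor uses, was the other. Its normalized values were 9.88, 9.51 and 10.13 in the FAP-TK controls, 9.73, 10.56 and 9.47 in FAP depleted, 10.04, 9.74 and 9.83 in the aSMA-TK controls, and 9.22, 10.09 and 9.44 in aSMA depleted. The highest value was on FAP depleted replicate 2, the lowest on aSMA depleted replicate 1, and the 4 groups overlapped. The F-test over the 4 groups gave an adjusted p of 0.81 (limma). Its copy Trav11d was below background on all 12 arrays, with normalized values of 6.95 to 7.83.

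Next in level came Trav1, the alpha segment of mucosal-associated invariant T cells, at 6.42 to 7.34, and Trav13d-3 with a mean of 6.55, both below background on every array. Against the lower GC background both passed on all 12 arrays.

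Among the beta segments the 3 of highest mean were Trbv1, Trbv21 and Trbv14, and none was above background on any array. Trbv1 had values of 4.61, 4.64 and 4.98 in the FAP-TK controls, 4.69, 4.97 and 4.90 in FAP depleted, 4.36, 4.40 and 4.56 in the aSMA-TK controls, and 4.57, 4.47 and 4.52 in aSMA depleted. All 6 arrays of the aSMA line were below the 6 of the FAP line, by 0.30 ± 0.12 in the controls (difference ± SE, adjusted p = 0.139, limma) and by 0.34 ± 0.12 in the depleted tumours (adjusted p = 0.126). Trbv21 ran from 3.95 to 4.86 and Trbv14 from 3.45 to 5.00. The mean of the 21 beta members had a median of 3.48.

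Of the 5 delta segments Trdv4, used by gamma delta T cells of the epidermis, was the brightest. Its values were 5.04, 5.16 and 4.86 in the FAP-TK controls, 5.02, 4.94 and 5.49 in FAP depleted, 4.32, 4.52 and 4.54 in the aSMA-TK controls, and 4.71, 4.67 and 4.98 in aSMA depleted. The aSMA-TK controls were below all FAP-TK controls, by 0.56 ± 0.16 (SE, adjusted p = 0.0608, limma), which missed the threshold of 0.05. Trdv5 and Trdv1 had means of 3.23 and 3.21, and all 5 delta segments were below background on all 12 arrays.

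The copies of a segment did not always give like values. Of the 111 members, 66 belonged to 27 segments with at least 2 measured copies, which formed 51 pairs of copies. In 14 pairs the values were within 0.5 of each other on every array, and the median over the pairs of the mean absolute difference was 0.43. The widest gaps were between Trav13d-4 and Trav13n-4, with a mean absolute difference of 5.12, and between Trav13-2 and Trav13n-2, with 2.61. Trav11d and Trav11n differed by 2.43 on average and by at least 2.26 on every array. These are gaps between probe sets and not measured differences in RNA.

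In 3 pairs the deposited values were identical on all 12 arrays, Trav14d-2 with Trav14n-2, Trav5d-3 with Trav5n-3, and Trav7d-5 with Trav7n-5. The 111 members therefore hold 108 distinct measurements, and each such pair is 1 measurement counted under 2 symbols below. Probes of other copies may share targets as well, so the members are not independent of each other.

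The first comparison asked whether depletion in the FAP line went with a different level of the segments. No member passed an adjusted p of 0.05 in FAP depleted against FAP-TK control tumours (limma, Benjamini-Hochberg over all 30142 genes), where 0% of all genes passed. The smallest adjusted p of a member was 1. At an unadjusted p under 0.05 there were 3 members (2.7%) beside 1117 genes (3.71%). The segments were split about evenly, 58 with a higher and 53 with a lower mean in the depleted tumours, so that 52.3% were higher, beside 59.9% of all genes, and their median difference was 0.01 (log2) against 0.04.

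The 3 members of smallest p with a higher mean in FAP depleted were Trav7n-4, Trav4-3 and Trbv12-1. Trav7n-4 had 3.93, 4.15 and 4.01 in the FAP-TK controls and 4.48, 4.39 and 4.47 in FAP depleted, a difference of 0.42 ± 0.16 (SE, adjusted p = 1, limma), with no overlap. Trav4-3 and Trbv12-1 differed by 0.33 ± 0.14 and 0.19 ± 0.09 (SE, each adjusted p = 1). On the lower side were Trav10n, Trav10d and Trav9n-1, with differences of -0.36 ± 0.14, -0.31 ± 0.14 and -0.22 ± 0.11 (SE, each adjusted p = 1). The values of the 2 groups did not overlap for 16 members, which is 14.4% of the members where 8.1% of all genes had no overlap. Of these 11 were higher and 5 lower in FAP depleted, where 5.6% and 2.5% of all genes were.

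In the aSMA line no member was called either, and 0% of all genes were. The smallest adjusted p was 0.944, with 7 members (6.31%) at an unadjusted p under 0.05 beside 1450 genes (4.81%, limma). The mean was higher in aSMA depleted for 61 members (55%, all genes 53.2%) and lower for 50, and the median difference was 0.02 against 0.01 for all genes. Groups without overlap were found for 13 members, a share of 11.7% where that of all genes was 12.5%. Of these 8 were higher and 5 lower, where 7.43% and 5.08% of all genes were.

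Trav10n had the largest difference of a member in that comparison, at 0.63 ± 0.14 (SE, adjusted p = 0.944, limma), followed by Trav6d-7 at 0.51 ± 0.13 and Trav8n-2 at 0.45 ± 0.15. Trav6d-7 had 2.90, 3.13 and 3.12 in the aSMA-TK controls and 3.51, 3.45 and 3.72 in aSMA depleted, with no overlap. On the lower side stood Trav4d-2, at -0.31 ± 0.14, and the pair of identical values Trav5d-3 and Trav5n-3, at -0.27 ± 0.12. RefSeq lists Trav4d-2, Trav5d-3 and Trav5n-3 as pseudogenes. None of these 6 members was above background on any array.

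Families of segments differed in direction, and the 3 named next were chosen after their values were seen. All 10 segments of Trav9 had a higher mean in aSMA depleted than in its controls, with a median difference of 0.19, while 3 of 10 had a higher mean in FAP depleted than in its controls. The 7 segments of Trav4 went the other way, with 6 of 7 higher in FAP depleted and 2 of 7 in aSMA depleted. None of the 10 segments of Trav9 or the 7 of Trav4 was called in either comparison. Of the 11 segments of Trav13, the family of the brightest member, 7 had a higher mean in aSMA depleted and 1 in FAP depleted. Of all genes 53.2% had a higher mean in aSMA depleted and 59.9% in FAP depleted. Families hold copies of like sequence, so these counts describe related probe sets.

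Whether the 2 lines differed in their depletion effect was asked by the interaction, the aSMA effect minus the FAP effect. No member was called, and 0% of all genes were, with a smallest adjusted p of 0.829 among the members (limma) and 4 members (3.6%) at an unadjusted p under 0.05 beside 1796 genes (5.96%). The median was 0.02 for the members and -0.03 for all genes, with 60 members above 0 (54.1%, all genes 46.4%) and 51 below. Trav10n was highest, at 1.00 ± 0.19 (SE, adjusted p = 0.829). On the lower side the 3 members of smallest p were Trav4d-2 at -0.45 ± 0.20, Trav16d-dv11 at -0.44 ± 0.21 and Trbv15 at -0.39 ± 0.19.

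**Figure D2:**
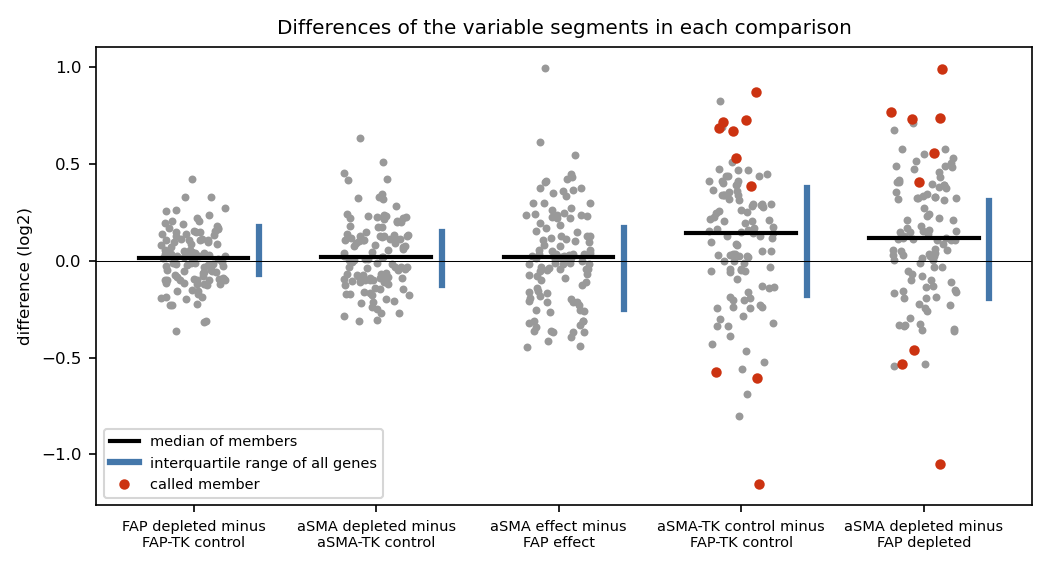
Difference of group means (log2, y axis) of each of the 111 variable segments in the 5 comparisons, with members of adjusted p under 0.05 in red, the median of the members as a black line and the interquartile range of all genes as a blue bar. Red points appear only in the 2 comparisons between lines, 10 and 9 of them, while the medians of the 3 depletion comparisons are 0.01, 0.02 and 0.02.

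Calls were made between the lines and not with depletion. The lines differ both in array background, as given above, and in the transgene they carry, and these cannot be told apart. In the aSMA-TK controls against the FAP-TK controls 10 members were called, which is 9.01% of the members where 7.8% of all genes were called. Of these 7 were higher and 3 lower, where 4.78% and 3.02% of all genes were. The share of members called was therefore near that of all genes. The mean was higher in the aSMA-TK controls for 74 members (66.7%, all genes 58.2%) and lower for 37, with a median difference of 0.14 against 0.07 for all genes. The direction rested on the scaling. On the deposited values, where the median gene was lower in the aSMA line by 0.39, 35 members were called, 2 higher and 33 lower, and with arrays centred on their medians 25 were called, 20 higher and 5 lower. The shares of all genes called under these 2 scalings are not given here, so the counts are not compared with other genes.

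Lower in the aSMA-TK controls were Trav10n, Trav4d-2 and Trav3n-3. Trav10n had 4.68, 4.36 and 4.30 in the FAP-TK controls, 4.01, 4.02 and 4.22 in FAP depleted, 3.30, 3.35 and 3.23 in the aSMA-TK controls, and 4.13, 3.93 and 3.71 in aSMA depleted. The aSMA-TK controls stood below every other tumour, and between the controls the difference was -1.15 ± 0.14 (SE, adjusted p = 0.00519, limma). This call was lost in 1 of 22 alternatives, that without the 3 arrays of low control separation, with a difference of -1.06 and an adjusted p of 0.0504 (range over the alternatives 0.000184 to 0.0504). The 9 other calls between the controls were lost in 5 to 13 of 22 alternatives. The 22 leave out the dim filter, which removed every called member. They include an adjusted p under 0.1, which cannot lose a call, and left-out arrays of groups not compared, so few losses are weak evidence of stability. The 2 depleted groups overlapped and differed by -0.16 ± 0.14 (adjusted p = 0.505).

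Trav4d-2, a pseudogene in RefSeq's table, had 5.54, 5.42 and 5.65 in the FAP-TK controls, 5.44, 5.92 and 5.67 in FAP depleted, 4.96, 4.95 and 4.89 in the aSMA-TK controls, and 4.40, 4.66 and 4.81 in aSMA depleted. All aSMA arrays were below all FAP arrays, by 0.61 in the controls (adjusted p = 0.0358, limma) and by 1.05 ± 0.14 in the depleted tumours (SE, adjusted p = 0.00831). Trav3n-3 was also below the FAP line on all 6 aSMA arrays, and was called in both comparisons (-0.58 and -0.53, adjusted p = 0.0325 and 0.0481, limma), but lost these calls in 8 and 14 of 22 alternatives.

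Higher in the aSMA-TK controls were Trav4d-4, Trbv15, Trav16n, Trav4-3, Trav14-2, Trav19 and Trav12d-2, with differences of 0.38 to 0.87. Trav16n had 4.04, 3.76 and 3.85 in the FAP-TK controls, 3.49, 3.89 and 3.83 in FAP depleted, 4.82, 4.45 and 4.54 in the aSMA-TK controls, and 4.72, 4.65 and 4.81 in aSMA depleted. The 2 lines did not overlap, and the difference was 0.72 ± 0.14 in the controls (SE, adjusted p = 0.0201, limma) and 0.99 ± 0.14 in the depleted tumours (adjusted p = 0.00911). Trbv15, the 1 beta segment called between the controls, was 0.73 ± 0.14 higher (adjusted p = 0.0178). On the deposited values Trbv15 alone of these 7 was still called. There Trav4-3 and Trav12d-2 turned to the lower side, at -0.10 each, and Trav16n was at 0.27, Trav14-2 at 0.31, Trav19 at 0.0769 and Trav4d-4 at 0.0612 (adjusted p = 0.228, 0.166, 0.695 and 0.865, limma).

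Between the depleted tumours of the 2 lines 9 members were called, which is 8.11% of the members where 5.18% of all genes were called. Of these 6 were higher in aSMA depleted and 3 lower, where 2.74% and 2.44% of all genes were. The median difference was 0.12 against 0.04 for all genes, and 76 members were higher (68.5%, all genes 55.2%) and 35 lower. On the deposited values 45 were called, 1 higher and 44 lower, and with median centring 22 were, 20 higher and 2 lower. Here too the shares of all genes called under these scalings are not given. The members higher were Trav16n, Trav14-2, Trav2, Trav6n-6, Trbv12-2 and Trav12d-2, and those lower were Trav4d-2, Trav3n-3 and Trbv12-1. The calls of Trav16n and Trav4d-2 were each lost in 1 of 22 alternatives, and the 7 others in 6 to 15. On the deposited values Trav16n alone of the 6 higher members was still called, Trav12d-2 turned to -0.17, and Trav14-2, Trav2, Trav6n-6 and Trbv12-2 lost their calls, at 0.19 to 0.34. Trbv12-1 and Trbv12-2, neighbours in name, went apart, at -0.46 ± 0.09 and 0.56 ± 0.13 (SE, adjusted p = 0.0293 and 0.0371, limma).

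The 2 comparisons between lines share no arrays, though they share 1 estimate of spread, and 5 members were called in both, Trav12d-2, Trav14-2, Trav16n, Trav3n-3 and Trav4d-2. They were 50% of the members called between the controls and 55.6% of those called between the depleted tumours. Of all genes called, 34.6% and 52% were shared in the same way. Values of all 6 aSMA arrays lay above all 6 FAP arrays for 11 members (all genes 7.85%) and below them for 6 (all genes 4.97%), together 15.3% of the members where 12.8% of all genes had no overlap. Within 1 comparison, groups of 3 did not overlap for 45 members between the controls (40.5%, all genes 35%) and 45 between the depleted tumours (40.5%, all genes 32.9%). Between the controls 29 were higher and 16 lower in the aSMA line, where 21.3% and 13.8% of all genes were. Between the depleted tumours 33 were higher and 12 lower, where 18.2% and 14.8% of all genes were. At an unadjusted p under 0.05 (limma) stood 33.3% and 35.1% of the members, beside 28.2% and 24.6% of all genes.

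**Figure D3:**
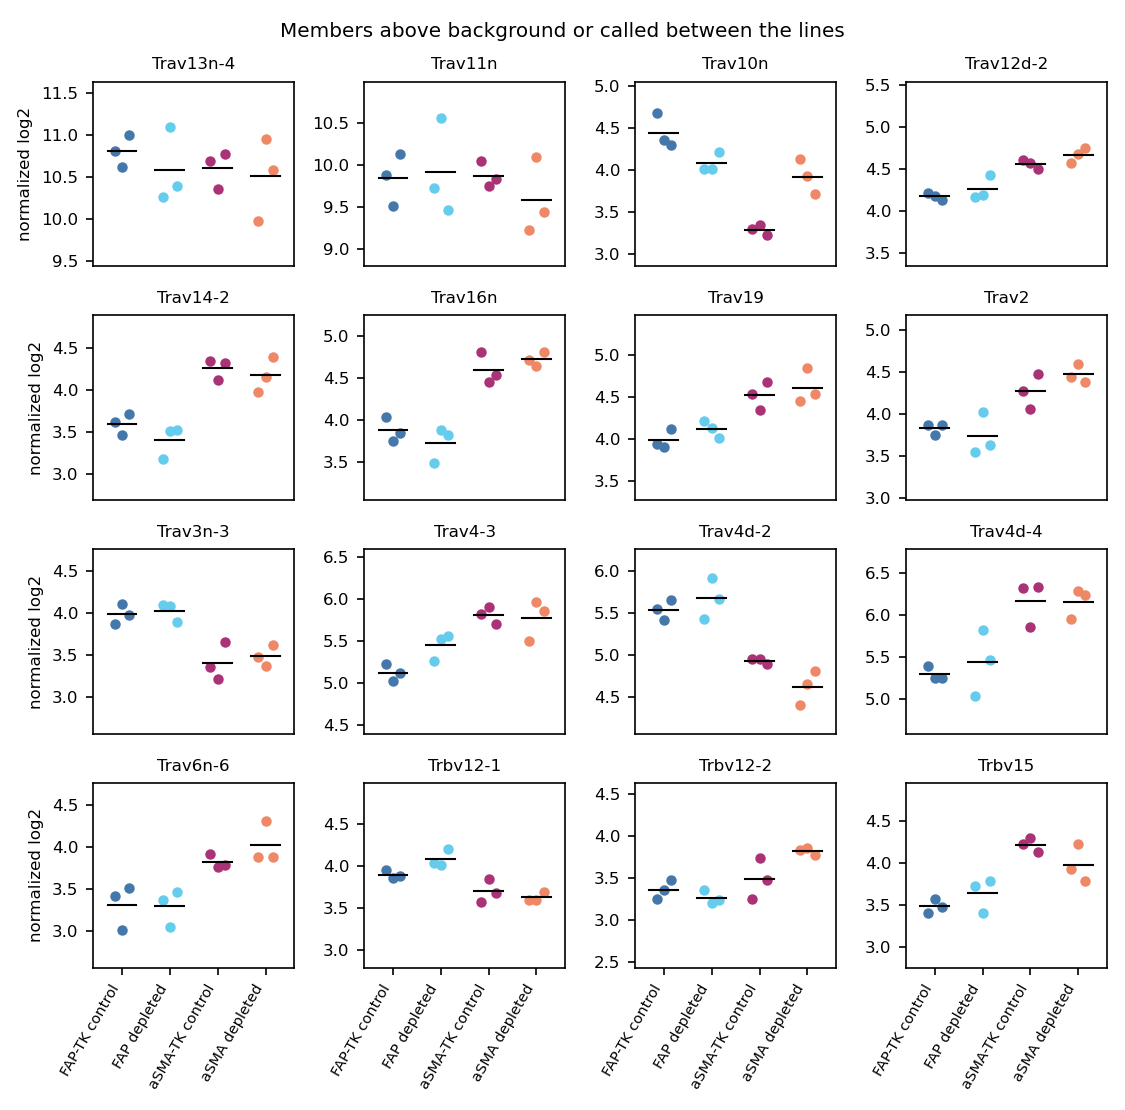
Normalized log2 values of Trav13n-4, Trav11n and the 14 variable segments called between the lines, as 3 points and a mean line per group, with axes of equal length but different position. Trav13n-4 and Trav11n overlap across the 4 groups, while Trav16n, Trav14-2 and Trav4d-2 separate by line, and Trav10n is lowest in the aSMA-TK controls at 3.23 to 3.35.

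The F-test over the 4 groups called 12 members (10.8%) where 6.68% of all genes were called (limma). Every member called between lines or by the F-test was below background, as defined above by the negative controls, on all 12 arrays. A difference between groups is therefore given in log2 units of dim probe sets and no fold is stated. Trav4-3 and Trav4d-4 passed the lower GC background on 9 arrays each, Trav4d-2 on 6 and Trav16n on 1. The other called members passed it on none. The counts between lines also rested on single arrays. Between the controls 10 calls became 1 when FAP-TK control replicate 3 or aSMA-TK control replicate 1 was left out, 3 when either FAP-TK control replicate 1 or aSMA-TK control replicate 2 was left out, and 5 without aSMA-TK control replicate 3. Between the depleted tumours 9 calls became 2 without FAP depleted replicate 1 or aSMA depleted replicates 2 or 3, 4 without FAP depleted replicates 2 or 3 or aSMA depleted replicate 1, and 5 without FAP-TK control replicate 3. Without the 3 arrays of low control separation they were 0 and 3. Fewer arrays also lowered the calls of all genes, whose shares are not given here. The falls are therefore not read as a trait of the members.

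Few other genes of the receptor were above background. Of 12 constant regions listed, the 1 measured with a single symbol, Tcrg-C3, was below background on every array. It was called between the depleted tumours only, at 0.98 ± 0.21 (SE, adjusted p = 0.0331, limma). None of the 19 joining segments passed background on at least 6 arrays, and Traj25 and Traj14 passed on 2 and 1. Their normalized means were 8.70 and 7.10, and the median over the 19 was 4.04. Traj14 and Traj54 were higher in the aSMA-TK controls than in the FAP-TK controls, by 2.84 and 1.30 (adjusted p = 0.0481 and 0.0201, limma). Between the depleted tumours Traj36 was higher in the aSMA line by 0.91 and Traj8 was lower, at -0.59 (adjusted p = 0.0187 and 0.0338, limma). Of 14 measured CD3 and signalling genes Icos alone was called, between the depleted tumours (0.70, adjusted p = 0.0442, limma). Of 8 measured genes of rearrangement Nhej1 alone, a DNA joining factor, was called, higher in the aSMA line in both comparisons (0.51 and 0.38). Xrcc5, which binds DNA ends for joining, was above background on 8 arrays, and Lcp2 and Ptprc of the signalling genes on 2 and 1. Against the lower GC background Traj14, Traj25, Traj38, Traj46, Traj55, Fyn, Lcp2, Plcg1, Ptprc, Prkdc, Xrcc5 and Xrcc6 passed on all 12 arrays. Among the genes that passed it on none were Tcrg-C3, Cd3d, Cd3g and Cd247, and the called Traj54, Traj36, Traj8 and Icos. Nhej1 passed it on 1 array. No gene of these lists was called with depletion in either line.

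The tumour of highest T cell markers was not the one of highest variable segments. On aSMA depleted replicate 1 the mean of the 10 measured T cell markers was 4.89, against 3.88 to 4.28 on the other 11 arrays. The mean of the 111 segments on that array was 4.19, inside their range of 4.09 to 4.36 over the 12 arrays. Cd3e, a chain of the receptor's CD3 complex, was 5.75 there and 3.90 to 4.94 elsewhere, and Cd4, the coreceptor of helper T cells, was 6.62 there and 3.63 to 4.78 elsewhere. None of the 10 T cell markers was above background on any array, and none was called in any comparison. Against the lower GC background Cd3e, Cd4 and Cd8b1 passed on 1 array each and the others on none. The part of T cell number in the values of the segments was not tested.

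The same tumour stood apart for B cell genes. Its mean was 5.22 for the 5 measured B cell markers, against 3.88 to 4.38 elsewhere. None of these 5 markers was above background on any array, and Cd22, Cd79a and Ms4a1 passed the lower GC background on 1 array each. The immunoglobulin variable segments, which encode the antigen-binding part of antibodies and are joined by the same recombination, had a mean of 6.47 on this array and 5.47 on aSMA depleted replicate 2, against 4.06 to 4.59 on the other 10. Of the 199 immunoglobulin segments 21 were above background on at least 1 array, where 18.4% of all genes were. In aSMA depleted against its controls 190 of 199 immunoglobulin segments had a higher mean, with a median of 0.82 and none called. Of the T cell receptor segments 61 of 111 did, with a median of 0.02, and of all genes 53.2% did.

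**Figure D4:**
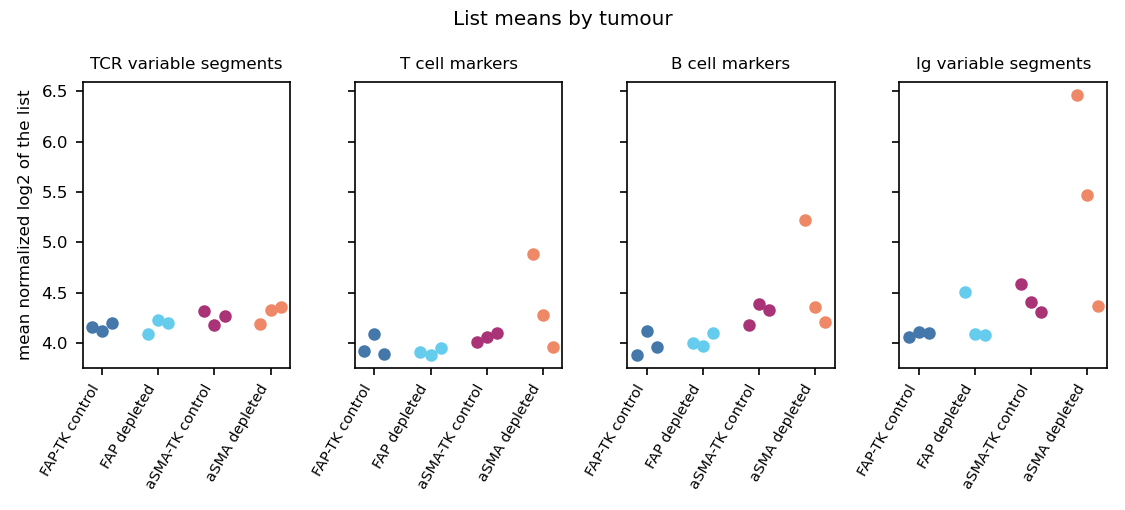
Mean normalized log2 value (y axis) of the T cell receptor variable segments, T cell markers, B cell markers and immunoglobulin (Ig) variable segments in each tumour, in replicate order within each group. The 3 right-hand lists peak on aSMA depleted replicate 1 at 4.89, 5.22 and 6.47, while the T cell receptor segments stay between 4.09 and 4.36 on all 12 arrays.

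Counted by array, the segments were highest most often on aSMA depleted replicate 3, where 25 of 111 had their highest value (22.5%, all genes 8.59%). On aSMA depleted replicate 1, the array with the highest T cell markers, 5 of 111 did (4.5%, all genes 13.3%). Lowest values were most frequent on aSMA-TK control replicate 2, with 22 of 111 (19.8%, all genes 10.7%). By group the median segment was 3.88 ± 0.02 in the FAP-TK controls, 3.89 ± 0.08 in FAP depleted, 3.91 ± 0.06 in the aSMA-TK controls and 3.95 ± 0.09 in aSMA depleted (SD, n = 3), with overlapping ranges of mean ± SD. These are normalized values, and normalization brings the arrays to 1 distribution. On the deposited values the same medians were 4.07 ± 0.06 and 4.09 ± 0.15 in the FAP line and 3.75 ± 0.08 and 3.70 ± 0.14 in the aSMA line (controls and depleted, SD, n = 3), lower in the aSMA line as was the median of all genes.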

How the data were processed

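The values are the authors' deposited log2 intensities of 72688 probe sets (scale read from the values, 1.64 to 19.93); per the submitters' processing notes limma was used, and the background correction, normalization and build were not stated in the labels or file, so no coordinates are printed. The label protocol names a kit for Illumina arrays, while the probe sets are of an Affymetrix type. Members were chosen by the platform annotation's symbols; 827 symbols of other probe sets were updated by Entrez identifier through RefSeq's table (GRCm38.p6), and choosing members by updated symbols was an alternative.

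After 6732 control probe sets were left out, 65956 were quantile normalized and 30142 single-symbol genes were fitted with limma 3.58.1 (R 4.3.3) as 4 group means, with Benjamini-Hochberg adjustment over all genes. The fit was tested on simulated data. Named members were the 3 of highest mean per locus, the 3 of smallest p in each direction per comparison, all called and all above background on at least 6 arrays. A few others (Trav1, Trav13d-3, Trav13d-4, Trav13-2 and Trav13n-2) were chosen after their values were seen. Members and lists were chosen with earlier results of these data known. Alternatives covered scaling, variance model, dim filter, background level and left-out arrays. The small number of arrays limits precision: 3 against 3 allows no exact permutation p below 0.1.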

Additional observations from a re-analysis of the deposited data

Results flagged for a closer look

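Trav10n was singled out because its depletion effects went opposite ways in the 2 lines: all 3 FAP depleted tumours were below all FAP-TK controls, and all 3 aSMA depleted tumours were above all aSMA-TK controls. The difference between the effects was 1.00 (log2). Its test, the interaction in limma, gave an adjusted p of 0.829 over all genes and so missed the threshold. The values are those of a probe set below background on all 12 arrays.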

How the results depend on the processing

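In the FAP, aSMA and interaction comparisons the count of members called was 0 under all alternatives run. Between controls, between depleted tumours and over the 4 groups the counts were 35, 45 and 36 on deposited values, 25, 22 and 26 with median centring, 21, 27 and 35 with array weights, 22, 23 and 20 at an adjusted p under 0.1, 0, 3 and 1 without the 3 arrays of low control separation, and 0, 0 and 0 with a filter that left 2 members. They were 1 and 0 between controls and between depleted tumours when only the groups compared were fitted, and a trended variance gave 15 between depleted tumours. With 1 array left out they ranged from 1 to 11, 2 to 9 and 4 to 11, and fewer arrays also lowered the calls of all genes. The shares of all genes called under these alternatives are not given here, so the counts describe the members alone. The median member difference between controls was -0.21 on deposited values, 0.24 with median centring, 0.0297 with an offset of 50, -0.0858 with the dim filter and 0.0822 with array weights; between depleted tumours it was -0.36 on deposited values, 0.0288 with the offset and -0.21 with the dim filter. For FAP it was -0.0726 with the dim filter and -0.0848 with array weights, for aSMA -0.19 with the dim filter, and for the interaction -0.0687 on deposited values, -0.12 with the dim filter and 0.10 with array weights. With 1 array left out the medians ranged from -0.02 to 0.05 (FAP), -0.02 to 0.09 (aSMA), -0.03 to 0.06 (interaction), 0.10 to 0.18 (controls) and 0.07 to 0.17 (depleted). Members above background are given for controls and then depleted tumours of the FAP line, and likewise of the aSMA line. They were 0, 0, 0 and 0 at the 99th percentile, and 10, 12, 23 and 23 at the median, of the negative controls. Above that median were 32.7 to 44.5% of all genes per FAP array and 45.1 to 53.2% per aSMA array. At the GC background, chosen after seeing the data, they were 13, 24, 14 and 15, beside 41.5 to 51.8% of all genes per array. Requiring all 3 arrays at the 95th percentile of the negative controls gave 0 and 1 in the FAP groups. On deposited values Trav4-3 and Trav12d-2 reversed between controls, at -0.10 each, and Trav12d-2 between depleted tumours, at -0.17. The cause of these shifts was not tested. No paired analysis was possible because the labels give no pairing of mice between groups and replicate numbers are accession order only. Signal was low for the segments when set against the negative controls: 109 of 111 were below their 95th percentile on every array. Against the lower GC background 11 to 28 members passed per array.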
